A study of Mus musculus with 112 samples.

Results

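The DNA around mouse microRNA genes was examined for CpG methylation (DNAme) in sperm and brain of a paternal cigarette smoke (CS) study. A neighbourhood was defined as a microRNA gene of the mm10 annotation (a symbol that starts with Mir and the gene type miRNA) together with the DNA within 1000 bp on either side. Of 1084 such genes on the autosomes, 695 had at least 3 CpG positions with a value and make up the neighbourhoods, 198 had only 1 or 2 such positions, and 191 had none. The 695 neighbourhoods held 14404 of the 4276552 autosomal positions with a value in any library. The 2 strands of a CpG were counted as separate positions, as in the tables.

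The assay was reduced representation bisulfite sequencing (RRBS), which reads the fragments between restriction sites and so samples CpG-dense DNA most. F0 sperm came from male C57BL/6J mice that were unexposed (control WT, n = 10), exposed to CS (smoked WT, n = 9), or exposed and then kept without CS for 3 increasing intervals of between 28 and 171 days (recovery 1, n = 9; recovery 2, n = 10; recovery 3, n = 10). It also came from mice on the C57BL/6J background that lack NRF2, the transcription factor that drives the antioxidant response, in all cells, without CS (control Nrf2-/-, n = 10) or with it (smoked Nrf2-/-, n = 9). Exposure began in young adults of matched age. The control WT mice were sampled soon after the exposure period, so the recovery groups were older when sampled, and age and recovery cannot be told apart in those comparisons. All F1 animals were adult sons of unexposed CAST/EiJ mothers, so every F1 genome is a C57BL/6J by CAST/EiJ hybrid, and sons of Nrf2-/- sires carry 1 targeted allele of the Nrf2 gene. F1 sperm was taken from 6 sons of control WT and 7 sons of smoked WT sires. F1 brain (prefrontal cortex) was taken from sons of all 4 kinds of sire, that is WT or Nrf2-/- males with or without CS (n = 8 each). The sample titles name no sire or litter. Sons of a group may therefore share a sire, while the F1 tests treat each library as separate. Prefrontal cortex is a mixture of neurons, glia, vessel and blood-derived cells, so a methylation percent there cannot tell a level within each cell apart from the share of each cell type.

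MicroRNAs are short RNAs that pair with messenger RNAs through their seed, bases 2 to 8 from the 5′ end, and lower the output of their targets. Their genes are transcribed as long precursors, either from a promoter of their own or inside the intron or exon of a host gene, and a hairpin is cut from the precursor. Methylated CpGs at a promoter are generally associated with silence of the gene, whereas CpG islands at active or poised promoters are usually free of methylation in sperm and brain alike. Much of the remaining genome is methylated in both.

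The mature microRNAs below belong to the neighbourhoods on which the results turned, with the seed in capitals. They are RefSeq sequences on GRCm38.p6, where 608 of the 695 genes had an entry. The first set comes from genes described in the comparison of sperm and brain.
miR-490-3p (chr6:36421800-36421821, + strand): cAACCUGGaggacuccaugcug
miR-142a-3p (chr11:87756903-87756925, + strand): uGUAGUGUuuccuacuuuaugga
miR-290a-3p (chr7:3218674-3218697, + strand): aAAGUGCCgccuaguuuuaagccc
miR-10a-5p (chr11:96317186-96317208, + strand): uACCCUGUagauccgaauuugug
miR-10b-5p (chr2:74726074-74726096, + strand): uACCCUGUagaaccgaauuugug
miR-219a-5p (chr2:29845689-29845709, - strand, and chr17:34025052-34025072, - strand): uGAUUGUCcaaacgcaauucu
miR-1905 (chr3:88536311-88536332, - strand): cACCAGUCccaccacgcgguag
miR-10a-5p and miR-10b-5p share the seed ACCCUGU and differ by 1 base in 23, U12A (the miR-10a base first, counted from the 5′ end). miR-219a-5p is the same from both of its genes, Mir219a-1 and Mir219a-2. The second set comes from genes that led a comparison of smoke or genotype in F0 sperm.
miR-3099-3p (chr7:6803638-6803659, + strand): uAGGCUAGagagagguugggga
miR-6537-3p (chr7:25097089-25097111, - strand): uUAUCAGGuggaagaacucagcu
miR-218-5p (chr5:48223966-48223986, + strand): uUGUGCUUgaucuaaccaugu

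The measured CpGs lay mostly beside these hairpins, and 4 stretches of mm10 show where. The capitals mark the CpGs whose methylation was measured in the comparison for which each stretch is shown, and all are written on the + strand. The first 3 served the comparison of brain with sperm: 13 positions beyond the 3′ side of Mir142, 5 positions over the start of the Mir490 hairpin, and 7 positions upstream of Mir10a. The fourth holds the 6 positions of Mir3099 measured in F0 sperm, which flank and overlap its hairpin.
Mir142 (chr11:87757118-87757241): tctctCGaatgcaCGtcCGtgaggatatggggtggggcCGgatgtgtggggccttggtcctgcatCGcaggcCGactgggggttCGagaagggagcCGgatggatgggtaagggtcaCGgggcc
Mir490 (chr6:36421683-36421765): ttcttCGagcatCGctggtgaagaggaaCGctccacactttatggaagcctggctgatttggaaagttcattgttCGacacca
Mir10a (chr11:96316907-96316951): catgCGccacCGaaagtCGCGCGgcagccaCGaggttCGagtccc
Mir3099 (chr7:6803581-6803686): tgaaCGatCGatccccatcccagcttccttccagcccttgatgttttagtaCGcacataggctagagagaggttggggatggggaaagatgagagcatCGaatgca

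Depth differed between tissues. Autosomal positions with a value numbered 785016 to 1812795 per library in F0 sperm, 498246 to 1405196 in F1 sperm and 1306707 to 1677347 in F1 brain. The tables give a percent per position and no read counts, so the depth behind a value is unknown and no counting interval can be given. The labels fitted the data where they could be checked. At Nfe2l2, the gene of NRF2, 6 positions had a value in all 48 WT F0 libraries, and 4 of these had a value in 0 of 19 Nrf2-/- libraries. The promoters of Dazl and Ddx4, genes of germ cells, averaged 0.790% and 0.715% in control WT F0 sperm and 82.5% and 65.7% in F1 brain of control WT sires. The maternally methylated promoters of Peg3 and Zrsr1 averaged 0.790% and 0.674% in the same sperm and 27.2% and 37.4% in the same brain. Peg10 averaged 2.10% and 26.3%, with 1 control WT sperm library at 16.3%. The Nrf2-/- F0 libraries carry a run of facility numbers of their own, as do the F1 brain libraries of Nrf2-/- sires, so genotype and that run cannot be told apart in either tissue, and 1 library titled as F1 brain of a control WT sire has an Nrf2-/- strain label and was kept by its title.

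A neighbourhood was tested in a tissue when it had at least 3 positions with a value in at least 4 libraries of every group. That held for 265 of the 695 neighbourhoods in F0 sperm, for 190 in F1 sperm and for 338 in F1 brain, and 352 were tested in at least 1 of these and 167 in all 3. Because clustered genes share positions, the 265 tested in F0 sperm form 225 separate clusters, the 190 form 161 and the 338 form 291. All other 2000 bp autosomal windows were treated in the same way and serve as the background, so that 90407 features were scored in F0 sperm.

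MicroRNA neighbourhoods were less methylated in sperm than the rest of the sampled genome. In control WT F0 sperm the median neighbourhood was 3.08% methylated against 84.7% for all features. Of the 265 neighbourhoods, 139 (52.5%) lay below 5%, 20 between 5% and 25%, 18 (6.79%) between 25% and 75%, 38 between 75% and 95%, and 50 (18.9%) at 95% or above. Among all features, 26.7% lay below 5% and 23.9% at 95% or above. F1 sperm of control WT sires gave a like picture, with 99 of 190 below 5% and a median of 3.21% against 55.9% for all features.

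A larger share of neighbourhoods lay at intermediate levels in F1 brain than in F0 sperm, and the same held for all features. Among all features the share between 25% and 75% was 28.8% in F1 brain of control WT sires and 10.5% in control WT F0 sperm. Sons of control WT sires had a median of 49.6% against 74.4% for all features. Of 338 neighbourhoods, 117 (34.6%) lay below 5%, 91 (26.9%) between 25% and 75%, 98 (29%) between 75% and 95%, and 9 (2.66%) at 95% or above. F0 sperm and F1 brain also come from different crosses. In F1 sperm of control WT sires 13.7% of neighbourhoods and 23.3% of all features lay between 25% and 75%. Over the 180 neighbourhoods valued in both tissues of these sons the shares were 7.78% in sperm and 18.9% in brain. For all features valued in both they were 21.4% and 24.2%. The neighbourhoods tested in brain and in sperm are not the same, so the matched comparison of the tissues is given further on.

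**Figure D1:**
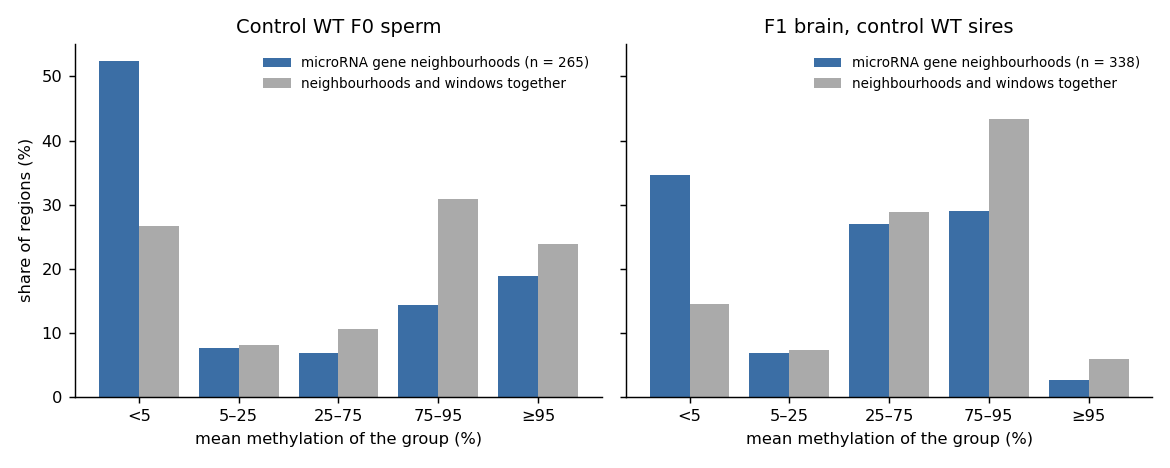
Distribution of the mean methylation (%) of microRNA neighbourhoods and of all features in control WT F0 sperm and in F1 brain of control WT sires, as the share of features in each class of methylation. In sperm 52.5% of neighbourhoods lay below 5% against 26.7% of all features, and in brain 34.6% against 14.5%.

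The spread between libraries followed the level. In F0 sperm a neighbourhood held a median of 10 positions against 5 for all features. The median SD of a neighbourhood over the control WT F0 sperm libraries was 1.40 points against 2.90 for all features. Within the class below 5% it was 0.765 against 0.938, and within the class from 25% to 75% it was 4.35 against 7.05, but in the class at 95% or above it was 2.45 against 2.23. In F1 brain of control WT sires it was 2.26 against 3.84, but in the class from 75% to 95% it was 4.17 against 3.9.

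CpG-rich neighbourhoods were low in sperm, and so were many that were not CpG-rich. A neighbourhood was called CpG-rich when its GC content was at least 50% and its observed-to-expected CpG ratio at least 0.6. In control WT F0 sperm all 68 CpG-rich neighbourhoods lay below 5%, with a median of 0.695%. The other 197 had a median of 38.4%, with 71 below 5% and 88 at 75% or above. In F1 brain 67 of 69 CpG-rich neighbourhoods lay below 5%, while the other 269 had a median of 65.8%. A gene start inside the neighbourhood gave a similar division: 73 of 80 such neighbourhoods lay below 5% in F0 sperm and 68 of 82 in F1 brain, against 66 of 185 and 49 of 256 without one.

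The place of the hairpin in its host also went with the level. The 98 neighbourhoods with the hairpin in an intron of a same-strand host had a median of 37.2% in control WT F0 sperm, and 45 of them lay at 75% or above. The 25 with a hairpin in an untranslated region had a median of 0.659%, with 23 below 5%. Hairpins in coding exons (24) had a median of 16.9%, those in other exons of a same-strand host (31) 1.19%, those without a host (52) 3.06%, and those with a host on the opposite strand only (35) 2.50%. In F1 brain the intronic set (138) stood at 70.6%, the hostless set (62) at 55.4% and the untranslated-region set (27) at 0.654%. The hostless set was thus low in sperm and intermediate in brain by its medians only, since it was split in both. In F0 sperm 28 of its 52 lay below 5% and 17 at 75% or above. In F1 brain 21 of its 62 lay below 5% and 12 at 75% or above. The untranslated-region set was low in both tissues.

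Outside CpG-rich DNA the level changed with distance from the hairpin. In control WT F0 sperm the median level of neighbourhoods that are not CpG-rich was 3.57% over the 200 bp upstream of the hairpin (53 neighbourhoods), 1.88% inside it (32) and 4.21% over the first 200 bp downstream (48). It was 90.9% from 201 to 400 bp downstream (28) and 90.6% from 401 to 600 bp (25). The upstream bins all lay between 2.01% and 3.71%. In F1 brain the same bins read 42.2%, 44.6%, 64.3% and, from 201 to 400 bp downstream, 73.9%, while the upstream bin from 201 to 400 bp read 6.50%. Each bin holds different neighbourhoods, so the profile describes what was sampled at each distance and not a course along 1 locus. The quartiles of most bins were wide, since a bin holds low and high neighbourhoods. In CpG-rich neighbourhoods no bin had a median above 1.17% in sperm or 1.67% in brain.

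**Figure D2:**
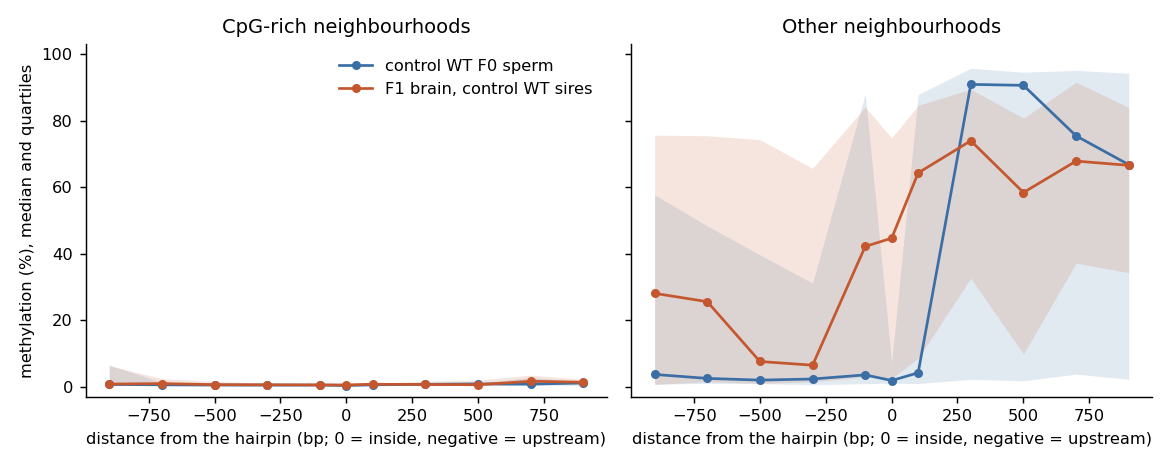
Median methylation (%) of neighbourhoods in 200 bp bins of distance from the hairpin (bp, negative is upstream, 0 is inside the hairpin) in control WT F0 sperm and in F1 brain of control WT sires, for CpG-rich and other neighbourhoods, with the quartiles shaded. Medians of CpG-rich neighbourhoods stay at or below 1.67% in both tissues, and in the others the sperm median is 4.21% just downstream and 90.9% in the next bin, with wide quartiles.

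Only 18 neighbourhoods lay between 25% and 75% in control WT F0 sperm, and most of them were mosaics of low and high positions. In 10 of the 18, some positions averaged below 25% and others 75% or above. In 7 more than 50% of the positions were themselves between 25% and 75%, and in 2 all were. In F1 brain 91 neighbourhoods fell in this class, of which 26 held both extremes, 65 had more than 50% of their positions in the middle, and 18 had all of them there.

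The intermediate neighbourhood with most positions was Mir1905 (chr3:88536301-88536382, - strand), whose hairpin lies opposite a coding exon of Mex3a, the gene of an RNA-binding protein. It averaged 74.3% ± 8.95 (SD, n = 10) in control WT F0 sperm. Its 23 positions ran from 23.3% to 98.6%, with 13 at 75% or above and 1 below 25%. In F1 brain of control WT sires its 30 positions ran from 0 to 19.8%. Mir6537 (chr7:25097066-25097175, - strand), in a coding exon of the lymphoid transcription factor gene Pou2f2, averaged 32.7% ± 7.96 (n = 9), with 10 of 22 positions below 25%, 12 between 25% and 75%, and none above 73.6%. In brain it was more methylated, 66.5% ± 3.70 (n = 8).

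Mir10a (chr11:96317165-96317274, + strand) lies in the Hoxb cluster without a host, and the start of Hoxb4, a regulator of body-axis identity, falls inside its neighbourhood. It averaged 42.8% ± 4.11 (n = 10) in control WT F0 sperm. That mean joined 2 separate stretches: the 9 positions 220 to 321 bp upstream had a median of 76.1% (52.8% to 90.1%), and the 7 positions 533 to 779 bp downstream had a median of 1.15% (up to 2.22%). In F1 brain the upstream positions fell within 4.29% to 11.6% and the downstream ones within 1.29% to 5.43%. Its relative Mir10b (chr2:74726070-74726137, + strand), in an intron of Hoxd3, averaged 13% ± 1.18. There the 6 positions 5 to 122 bp downstream had a median of 41.6% (15.1% to 54.4%) and the 14 positions 462 to 919 bp upstream a median of 1.82% (up to 17.6%).

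Of the 6 intermediate neighbourhoods with most positions (1 per locus), the remaining 3 lay in introns. Mir6913 in Dohh, an enzyme gene of hypusine synthesis, averaged 58.5% ± 3.67, with its 5 downstream positions at a median of 95.7% and its 6 upstream positions at 20.5%. Mir6923 in Myh3, an embryonic myosin gene, averaged 38.4% ± 11.6, with 8 of 10 positions in the middle range. Mir6917 in Erbb3, a receptor gene of the EGF receptor family, averaged 28.5% ± 4.11.

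A few neighbourhoods varied far more than others between control WT F0 sperm libraries. The largest SD was 21.1 points at Mir874, in an intron of Klhl3, around a mean of 79.2% over 3 positions. Mir7024, in an intron of Nelfa, had 87.1% ± 14.3 and Mir7053, in an intron of Pold1, 46.9% ± 10.8. Mir6923, above, had an SD of 11.6. These 4 rest on 3 to 10 positions each.

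**Figure D3:**
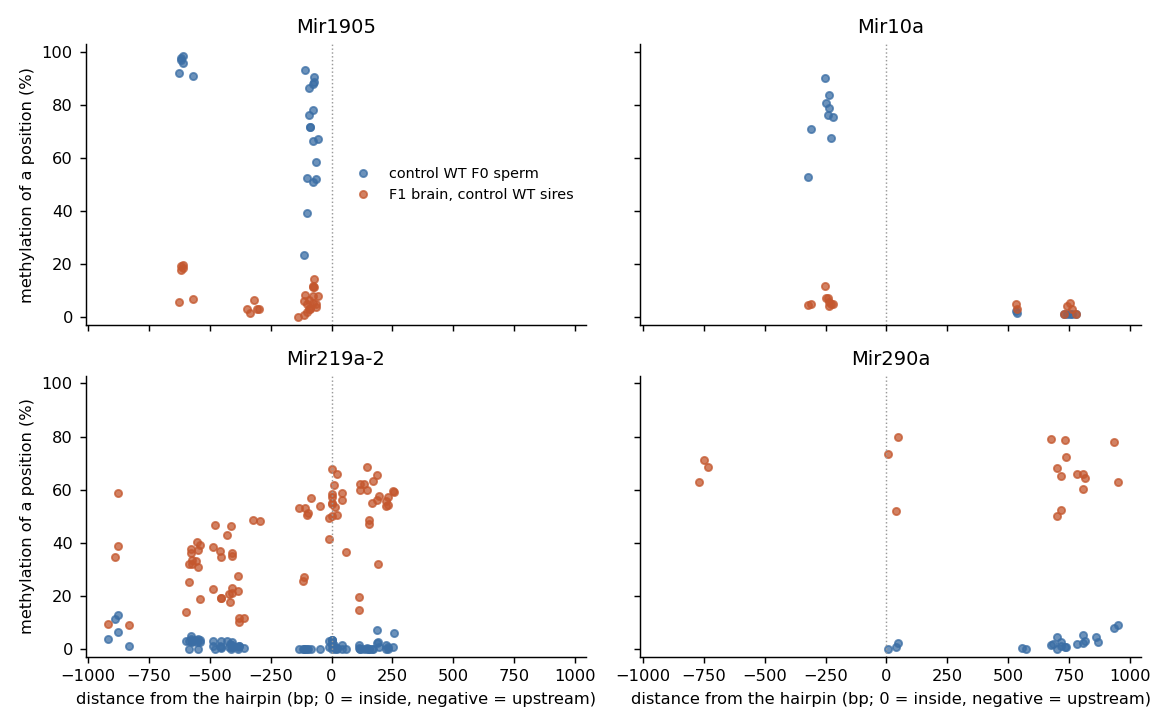
Methylation (%) of each position around 4 hairpins against its distance (bp, negative is upstream, 0 is inside the hairpin), 1 point per position, in control WT F0 sperm and F1 brain of control WT sires. Mir1905 is high in sperm and low in brain, Mir10a is high in sperm only upstream (52.8% to 90.1%), and Mir219a-2 and Mir290a are below 12.9% in sperm and start at 9.05% and 50.1% in brain.

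MicroRNA genes of the brain list were mostly low in sperm, as were CpG-rich neighbourhoods in general. Of 15 tested genes on a list of brain microRNAs, 13 lay below 5% in control WT F0 sperm, with a median of 1.28%, and 11 of 16 lay below 5% in F1 brain. In that sperm 139 of all 265 neighbourhoods and all 68 CpG-rich ones also lay below 5%. So did 11 of 13 genes on the list of male germ line and early embryo. Mir124a-3, of the family most abundant in neurons, had 0.730% in sperm and 0.557% in brain. Mir137 had 1.28% and 1.02%, Mir212 0.699% and 0.852%, and Mir132, which like Mir212 is induced by neuronal activity, 3.0% and 3.72%. The exceptions in sperm were Mir135a-2 at 93.6% and Mir218-1 at 57.3% ± 5.29.

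Mir219a-2 was the brain-list gene whose levels in the 2 tissues lay farthest apart. miR-219a is made in oligodendrocytes, the myelinating glia, and its gene on chromosome 2 (29845631-29845727, - strand) lies between genes. It averaged 1.72% ± 0.828 in control WT F0 sperm, where all 82 positions lay below 25%, and 41.6% ± 5.00 in F1 brain, where 67 of 84 positions lay between 25% and 75%. The brain level was higher at the hairpin (6 positions, median 56.2%) and downstream (28 positions, median 56.7%) than upstream (50 positions, median 34.6%). Mir219a-1 on chromosome 17, which gives the same mature sequence, had 0.902% in sperm and 1.06% in brain.

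Other sets of genes also give 1 mature microRNA from several loci. Mir9-1, Mir9-2 and Mir9-3 had 0.956%, 1.11% and 1.29% in control WT F0 sperm and 4.38%, 1.76% and 1.47% in F1 brain. Mir196a-1 and Mir196a-2 had 3.42% and 2.39% in brain. Mir26a-1 and Mir26a-2 had 42.4% and 84.9% in brain. Within each of these sets the product has the same sequence, while the levels in brain lay far apart for Mir26a and Mir219a genes.

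Imprinted-locus genes formed the most methylated list. All 27 tested neighbourhoods (9 clusters) lay between 87.3% and 98.0% in control WT F0 sperm, with a median of 97.1%. In F1 brain 31 tested neighbourhoods had a median of 83.0%, from 57.6% to 94.9%. The medians of all features were 84.7% in that sperm and 74.4% in brain. In F1 sperm of control WT sires, the same cross as the brain, 19 tested neighbourhoods had a median of 80.6%, from 47.4% to 98.2%. The median of all features there was 55.9%. The sperm values that follow are from control WT F0 sperm. The Dlk1-Dio3 locus, whose microRNAs are expressed from the maternal chromosome, held Mir127 at 97.9% in sperm and 85.1% in brain, Mir370 at 90.4% and 77.2%, and the cluster around Mir380 at 98.0% and 58.5%. Mir296 and Mir298, at the Gnas locus, had 97.6% ± 0.973 and 79.8%. Mir466f-3 and Mir669d-2, in the large cluster inside Sfmbt2, both had 95.6% and 83.0%. At Mir434, 1 position inside the hairpin stood at 2.99% in sperm and 2.22% in brain, while the 7 positions upstream were at 95.8% or above in sperm.

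Genes of the male germ line and early embryo differed among themselves. Mir34b and Mir34c, which are abundant in male germ cells, had 1.01% in sperm and 1.78% in brain, and Mir191 had 1.19% and 2.11%. Mir290a, of a family that provides the main microRNAs of embryonic stem cells, had 2.50% ± 0.961 in sperm and 67.5% ± 6.19 in brain. Mir25, Mir93 and Mir106b, in 1 intron of the replication gene Mcm7, had 49.6% ± 8.89 in brain. Hox-cluster genes other than Mir10a and Mir10b were low in both tissues: Mir196b had 1.07% and 2.64%, and Mir615 had 0.923% and 4.66%.

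The remaining lists held few tested genes. Among microRNAs tied to oxidative stress and the NRF2-KEAP1 pathway, 7 were tested in F0 sperm. Mir210, which is induced by low oxygen, had 0.638% in sperm and 2.81% in brain, Mir141 and Mir200c, of epithelial cells, had 20.7% and 17.8% in sperm and 55.2% and 63.1% in brain, and Mir365-2 had 96.9% and 96.0%. The Mir141 mean joined 2 stretches that differed in direction. Upstream the median was 3.52% in sperm (13 positions) and 70.1% in brain (7). Downstream it was 93.6% in sperm (3) and 39.5% in brain (4). Mir30a, on the list of inflammation and smoke response, had 93.2% in sperm and 54.6% in brain. Mirlet7e and Mir125a, which share their positions, had 1.86% and 24.9%, and Mirlet7i had 0.326% and 0.587%.

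Brain and sperm were compared in the F1 sons of control WT sires, 8 brain and 6 sperm libraries of the same cross. Of 180 neighbourhoods with values in both, 93 (51.7%) differed at an adjusted p under 0.05 by limma, against 59.9% of all 52025 features tested. Of these, 57 were higher in brain (background 35.8%) and 36 lower (background 24.1%). With every library centred on its own mean over the features valued in all libraries, 33 of 156 called were higher. Centring moved the median difference of all features from +0.527 to -5.15 points. Differences of at least 20 points were called in 38 (21.1%, background 29.6%), 26 higher and 12 lower in brain. The libraries of the 2 tissues did not overlap in 60 of the 180 neighbourhoods against a background of 41% of features whose libraries do not overlap.

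Most neighbourhoods low in sperm were low in brain. In all, 78 of 180 lay below 5% in both tissues and 41 at 75% or above in both. The switch from below 5% in sperm to at least 25% in brain was seen in 13, the fall from at least 75% to below 75% in 11, and the fall from at least 75% to below 25% in 1, Mir1905. Of 55 CpG-rich neighbourhoods 14 were called and 1 differed by at least 20 points, while 79 of the other 125 were called and 37 differed by that much. Among all features, CpG-rich or not, 59.9% were called and 29.6% were called with at least 20 points.

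The largest rise was at Mir490 (chr6:36421742-36421825, + strand), in an intron of Chrm2, the gene of a muscarinic acetylcholine receptor. The 8 brain libraries ran from 95% to 99% with a median of 97.5%, and the 6 sperm libraries from 1.33% to 12.1% with a median of 8.17%. The groups were far apart, and the difference over the 5 positions shown above was +89.7 points (SE 2.02, limma adjusted p 5.65e-15). Mir7034, in an intron of Tmem120a, had 91.2% ± 3.11 (n = 8) in brain and 6.78% ± 4.90 (n = 4) in sperm, a difference of +84.4 (SE 2.73).

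Mir142 and Mir142b (chr11:87756864-87756927, + strand for Mir142) share 1 locus in an intron of the non-coding host Mir142hg. miR-142 is known as a microRNA of blood cells and is among the most abundant in them. The brain libraries lay between 75.7% and 85.7% with a median of 81.7%, and the 5 sperm libraries between 0.0872% and 4.99% with a median of 2.73%. The difference over 14 positions was +78.2 points (SE 2.15, limma adjusted p 1.87e-13). Position by position, the 20 downstream positions measured in control WT F0 sperm had a median of 2.02% and a highest value of 7.86%, and in brain the downstream positions ran from 71.1% to 86.6%. The downstream ranges of the tissues lay apart. Of the 2 upstream positions, which averaged 4.89% and 83.2% in control WT F0 sperm, the higher lay within the downstream range of brain. These 2 are adjacent bases, 762 and 763 bp from the hairpin, as the 2 strands of a CpG are. Why they differ was not tested.

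The embryonic-stem-cell cluster around Mir290a (chr7:3218626-3218708, + strand) rose as a block. Its 8 brain libraries ran from 54.3% to 75.9% with a median of 67.1% and its 6 sperm libraries from 0.595% to 3.73% with a median of 1.68%. The difference over 8 positions was +64.7 points (SE 2.93, limma adjusted p 1.89e-11). The tested genes of the cluster count as 1 locus here because they share positions.

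The other named rises were Mirlet7a-2 with +76.1 points (SE 4.21; 92.3% ± 8.38 against 16.2% ± 7.65; with control WT F0 sperm in place of F1 sperm +11.6, limma adjusted p 0.144), Mir101c with +69.3 (SE 3.58), Mir8099-1 with +65.6 (SE 4.85) and Mir6385 with +62.9 (SE 2.85). let-7 microRNAs accumulate as cells differentiate. Mir8099-1 and Mir6385 lie opposite untranslated regions of Lysmd1 and of Pml, the gene of a nuclear body protein. Mir101c and Mir8099-1 lie in repeated DNA: 65.9% and 47.8% of the 32-base words of their neighbourhoods occur elsewhere in mm10, so their reads may come from several loci. Among all 352 tested neighbourhoods 3 had more than 50% such words and 311 fewer than 10%.

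The largest fall was at Mir1905. Its 4 sperm libraries ran from 88.9% to 100% with a median of 97.3% and its 8 brain libraries from 9.36% to 19.2% with a median of 16.3%. The groups did not meet, and the difference over 3 positions was -80.9 points (SE 2.67, limma adjusted p 5.93e-12). Mir10a fell by 52.8 points (SE 2.20, limma adjusted p 2.16e-11) over 9 positions: the 5 sperm libraries ran from 50.0% to 65.8% with a median of 57.1%, and the brain libraries from 4.17% to 8.78% with a median of 5.99%. Mir10b went the same way by a smaller amount, 20.8% in sperm and 5.68% in brain, a difference of -15.1 (SE 1.87). The 2 genes with nearly the same product thus shared the direction.

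The other named falls were mostly in introns. Mir6896 in Dst, a cytoskeletal linker gene, had 99.0% ± 2.08 (n = 4) in sperm and 26.9% ± 8.19 (n = 7) in brain, a difference of -72.1 (SE 4.18). Mir6910, in Ptbp1, the gene of a splicing factor that neurons switch off, had 97.6% ± 0.806 and 38.6% ± 3.28, a difference of -59.0 (SE 2.14). Mir6975 in Ddx39b had -55.4 (SE 2.62), and Mir6399 in Eif4g3 had -51.1 (SE 4.24). Mir6990 in an exon of Esrra, an orphan nuclear receptor gene, had -46.4 (SE 4.80), and Mir130a, without a host, -52.5 (SE 6.03). Each rests on 3 or 4 positions, and the largest adjusted p by limma among the 16 named differences was 2.53e-06, at Mir130a.

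**Figure D4:**
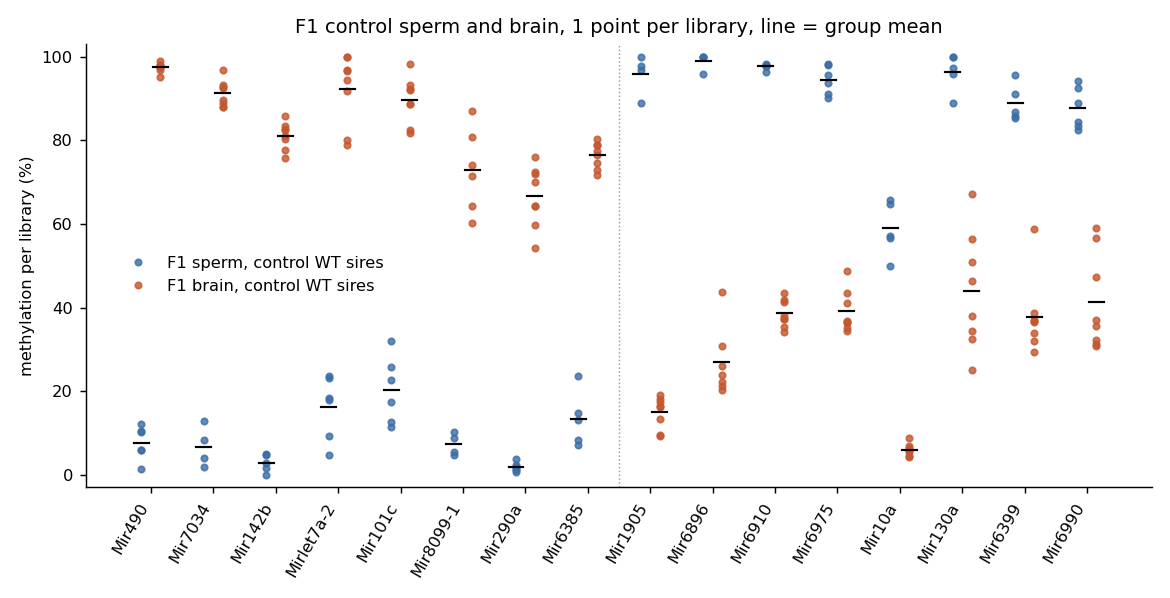
Methylation (%) per library of the 16 neighbourhoods named for the largest differences between F1 sperm (blue) and F1 brain (orange) of control WT sires, 1 point per library, with a line at each group mean. To the left of the dotted line brain lies above sperm without overlap, from Mir490 (97.4% against 7.70%) to Mir6385, and to the right it lies below, from Mir1905 (15% against 95.9%) to Mir6990.

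By list, all 11 tested genes of the male germ line and early embryo were called (background 59.9% of all features) and 9 of them were higher in brain, which became 7 higher of 9 called with centred libraries. These 11 genes are only 4 loci that share no positions: the Mir290a block, Mir34b with Mir34c, Mir10a and Mir10b. Of 12 brain-list genes, at 11 loci, 5 were called and 4 of these were higher in brain. With centred libraries 1 of 10 called was higher, since Mir9-1, Mir132 and Mir212 then had negative differences. Centring moved the list's median difference from +0.266 to -5.75 points, a shift larger than the differences of these 3 genes before centring. Mir219a-2 rose by 46.5 points (SE 4.06), from 4.27% ± 1.55 (n = 4) to 50.8% ± 8.55 (n = 8) over 11 positions. Mir9-1 rose from 0.720% to 5.44%, a difference of +4.72 (SE 0.426), while Mir9-2 and Mir9-3 differed by +0.373 and -0.133 points with limma adjusted p of 0.714 and 0.846. Mir132 rose by 2.31 points and Mir212 by 0.698, with limma adjusted p of 9.43e-05 and 0.0228, and Mir128-2 fell from 9.08% to 2.92%, adjusted p 0.0078. Of 19 imprinted-locus genes, at 6 loci, 8 were called, 4 in each direction, and these 8 lie at only 2 loci. With centred libraries 13 were called, 4 of them higher. Mir127 fell from 96.4% to 86.1% (limma adjusted p 0.0027), whereas the Mir466n block rose from 80.6% to 94.9%.

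The shorter lists moved as follows. All 4 tested Hox-cluster genes were called, beside the 59.9% of all features, and 1 of them, Mir615, was higher in brain, by 2.24 points with a limma adjusted p of 0.0206, but none was higher with centred libraries (0 of 4). Centring moved the list's median difference from -8.46 to -15.1 points, a shift larger than the difference of Mir615 before centring. Of 5 oxidative-stress genes 3 were called, 2 of them higher, and 1 higher of 3 with centred libraries. Mir210 rose from 4.29% to 13.3% in brain, adjusted p 0.0010, over only 3 positions. Among all its positions scored in F1 brain, the 6 inside the hairpin had a median of 11.9% and the 31 upstream a median of 0%. The only tested gene of inflammation and smoke response, Mir30a, fell from 69.5% to 54.6%, adjusted p 0.0020, and the only tested let-7 gene was Mirlet7a-2. Where no centring is named, these values were not centred.

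Smoke and genotype were compared next, within each tissue, with limma over all features and p adjusted over all of them. Beside that test stands a rule of size without a test, adapted from the study's methods and applied here to neighbourhoods and fixed windows without the study's minimum of reads: at least 1 in 3 of a feature's positions and its mean had to differ by more than 5 points. Directions by that rule are from values that were not centred. Comparisons with the same control group share its libraries.

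In F0 sperm of WT mice no neighbourhood passed the adjusted threshold after CS or in any recovery group. After CS 14 of 265 neighbourhoods (background 4.14%) had an unadjusted p under 0.05, 7 of them higher, and 0 were called (background 0%). Recovery 1 had 15 (background 5.01%) and 0 calls (background 0%), recovery 2 had 11 (background 4.01%) and 0 calls (background 0.00442%), and recovery 3 had 18 (background 6.43%) and 0 calls (background 0.0232%). Centring the libraries moved the split by direction from 7 higher of 14 to 12 of 15 in smoked WT, from 7 of 15 to 2 of 9 in recovery 1, from 3 of 11 to 2 of 3 in recovery 2 and from 12 of 18 to 3 of 16 in recovery 3, and on the logit scale smoked WT had 2 higher of 12. The size rule picked 5 neighbourhoods in smoked WT (background 5.74%), 7 in recovery 1 (background 6.58%), 2 in recovery 2 (background 4.98%) and 6 in recovery 3 (background 8.07%), in each case a smaller share of neighbourhoods than of features. Neighbourhoods lay below 5% more often than all features (52.5% against 26.7% in control WT) and held more positions (median 10 against 5). How far the smaller share rests on this was not tested.

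Mir6537 had the smallest p in smoked WT and in recovery 2. Control WT libraries ran from 23% to 46.8% with a median of 30.1% (n = 9), smoked WT libraries from 21.6% to 31.5% with a median of 23.4% (n = 8), and recovery 2 libraries from 11% to 26.9% with a median of 19.7% (n = 10). The groups overlapped. The difference was -7.90 points (SE 2.84, limma adjusted p 1) in smoked WT and -13.0 points (SE 2.69, limma adjusted p 0.110) in recovery 2, and without library 7 of the control WT group (numbered by the order of columns) the latter was -14.2 with an adjusted p of 0.0460. The means of the other groups were 23.3% in recovery 1, 24.5% in recovery 3, 25.5% in control Nrf2-/- and 24.1% in smoked Nrf2-/-, with limma adjusted p from 0.244 to 0.944. Every one of these differences is taken from the same control WT libraries, whose SD of 7.96 was larger than that of each other group.

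In recovery 1 the smallest p belonged to Mirlet7i, which had 0.326% ± 0.195 in control WT and 1.09% ± 0.579 in recovery 1 over 87 positions, a difference of +0.763 points (SE 0.213) that did not pass, limma adjusted p 0.944. In recovery 3 it belonged to Mir375, a microRNA of endocrine cells, with 0% in all 7 libraries with a value against 1.19% ± 1.47 in 5 control WT libraries, limma adjusted p 0.607. Mir290a had 2.50% ± 0.961 in control WT (0.849% to 3.69%), 4.07% ± 2.18 in smoked WT (0.564% to 6.90%), and 1.89%, 2.50% and 2.88% in recoveries 1 to 3. Its difference in smoked WT was +1.57 points (SE 0.604, limma adjusted p 1), and the 6 germ-line genes of 13 with an unadjusted p under 0.05 all rest on its 21 positions, so they are 1 measurement. Mir293, the other tested gene of the cluster, rests on 16 positions and differed by +1.16 points with an unadjusted p of 0.130.

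The comparison of control Nrf2-/- with control WT F0 sperm gave the only called neighbourhood of the within-tissue comparisons. Genotype and the run of facility numbers cannot be told apart in it. Of 265 neighbourhoods 30 (background 8.32%) had an unadjusted p under 0.05 in control Nrf2-/- against control WT, 16 of them higher (4 of 18 after centring, 6 of 20 on the logit scale), and 1 was called (background 0.432%). Of the 16 higher ones, 10 lay below 5% in control WT, and of the 14 lower ones, 10 lay at 75% or above. Genes that share positions are counted singly here. The higher ones include 7 genes of the male germ line and early embryo at 2 loci, and the lower ones 9 imprinted-locus genes at 2 loci. The size rule picked 7 (background 9.62%), 4 of them higher.

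The called neighbourhood was Mir3099 (chr7:6803587-6803670, + strand), in an intron of Usp29, a gene next to Peg3 that is expressed from the paternal chromosome. The control WT libraries ran from 78.7% to 83.8% with a median of 81.9%, and the control Nrf2-/- libraries from 72.3% to 80.4% with a median of 77.9% (n = 10 each). The ranges overlapped, with the Nrf2-/- libraries lower on average. The means were 81.8% ± 1.73 and 77.6% ± 2.28, a difference of -4.18 points (SE 1.06, limma adjusted p 0.0486) over the 6 positions shown above. The call sits at the threshold: it was kept in 5 of the 20 fits that left out 1 library, and the difference stayed between -4.52 and -3.6.

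Mir3099 differed less in the other F0 groups. Smoked Nrf2-/- had 79.3% ± 2.06, a difference of -2.47 from control WT with a limma adjusted p of 0.555, and smoked WT had 79.6%, a difference of -2.16 with an adjusted p of 1. The change with CS in Nrf2-/- mice differed from that in WT mice by +3.87 points (SE 1.54), which did not pass, limma adjusted p 1. The recovery groups had 81.3%, 80% and 81.3%. In F1 brain the 4 groups lay between 90.4% and 92.6% and differed from control WT sires by at most 1.59 points.

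**Figure D5:**
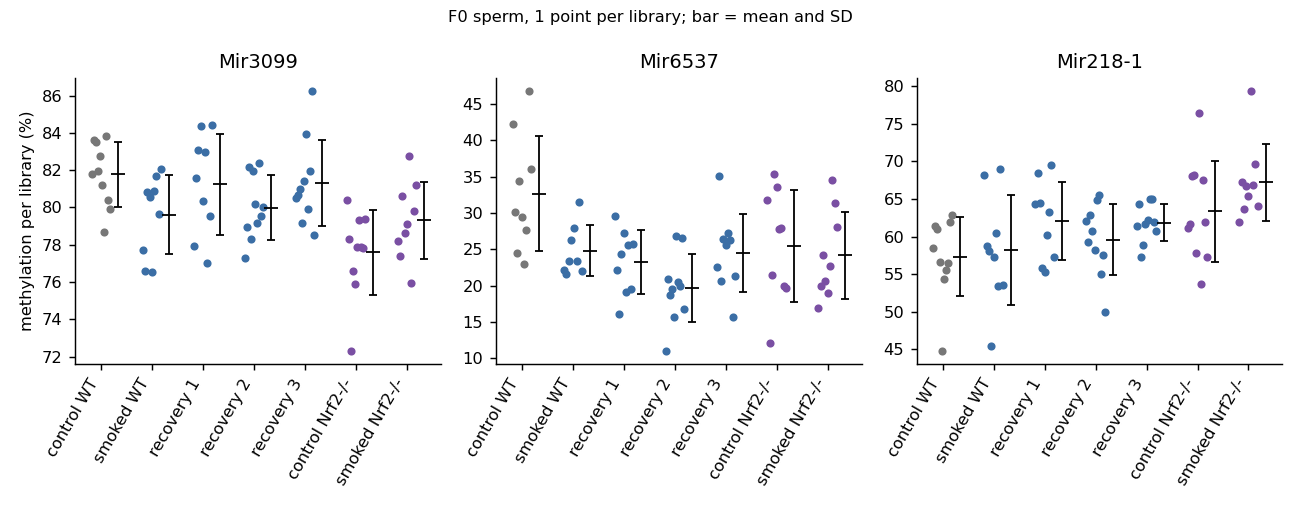
Methylation (%) of Mir3099, Mir6537 and Mir218-1 in the 7 F0 sperm groups, 1 point per library, with the group mean and SD as a bar; the vertical axes do not start at 0. For Mir3099 the control Nrf2-/- mean (77.6%) is the lowest, for Mir6537 the control WT mean (32.7%) is the highest, and for Mir218-1 the smoked Nrf2-/- mean (67.2%) is the highest.

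Smoked Nrf2-/- mice were compared with control WT as well as with control Nrf2-/- mice. Against control WT 31 neighbourhoods (background 7.8%) had an unadjusted p under 0.05, 16 higher (14 of 21 after centring), and 0 were called (background 0.387%), while the size rule picked 11 (background 8.21%). The 16 higher ones include 6 genes of the male germ line and early embryo at 1 locus. Against control Nrf2-/- 11 (background 6.14%) had an unadjusted p under 0.05, 4 higher (5 of 7 after centring), 0 were called (background 0.00111%), and the size rule picked 5 (background 7.88%). The change with CS was compared between genotypes directly: 3 neighbourhoods (background 4.08%) had an unadjusted p under 0.05 and 0 were called (background 0%).

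Mir218-1 (chr5:48223942-48224051, + strand), in an intron of the axon-guidance gene Slit2, led the comparison of smoked Nrf2-/- with control WT. Smoked Nrf2-/- libraries ran from 62% to 79.3% with a median of 66.7% (n = 9), and control WT libraries from 44.8% to 62.9% with a median of 57.5% (n = 10). The ranges met only at their edges, and the difference over 3 positions was +9.85 points (SE 2.58, limma adjusted p 0.0683). Control Nrf2-/- had 63.3% ± 6.71, a difference of +6.01 with an adjusted p of 0.468, and smoked WT had 58.3%. Mir290a had 3.76% ± 1.22 in control Nrf2-/- and 4.46% ± 1.05 in smoked Nrf2-/-, differences of +1.26 and +1.96 points from control WT with limma adjusted p of 0.554 and 0.193. Between smoked and control Nrf2-/- mice the smallest p was at Mir5046, in a coding exon of Rps6ka4, with 1.65% ± 0.961 against 0.816% ± 0.628 over 28 positions, limma adjusted p 0.753.

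No member of the 7 lists was called by limma in any F0 sperm comparison, at 0 of up to 27 genes per list (background 0% to 0.432%). With centred libraries Mir218-1, on the brain list and on that of inflammation and smoke response, was called in smoked Nrf2-/- against control WT (limma adjusted p 0.0413). In control Nrf2-/- 9 of 27 imprinted-locus genes had an unadjusted p under 0.05 (background 8.32%), all lower and at 2 of the list's 9 loci, and 9 lower also with centred libraries, with a median difference of -0.639 points over the list beside +0.0841 over all features. The oxidative-stress list had 0 of 7 with an unadjusted p under 0.05 in smoked WT, in recovery 2 and in both Nrf2-/- groups against control WT, and 1 of 7 in recovery 1 and in recovery 3 (background 5.01% and 6.43%), higher in both before centring and 0 of 7 after it. With centred libraries the count in smoked WT was 1 of 7, higher. The brain list had between 1 and 2 of 15 in each F0 comparison of 2 groups (background 4.01% to 8.32%), in both directions, and between 0 and 1 of 15 with centred libraries.

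F1 sperm was compared between sons of smoked WT and control WT sires. Of 189 neighbourhoods 15 (background 6.05%) had an unadjusted p under 0.05, 12 of them higher, which turned to 0 higher of 6 with centred libraries, and 0 were called (background 0%). The 12 higher ones include 7 genes of the male germ line and early embryo at 1 locus. Of the 12, 7 lay below 5%, and the median size was 1.37 points. Centring took about the group difference over all features, +2.41 points, from each, so smaller differences turned with the subtraction. The size rule picked 15 of 190 (background 19.6%), 14 of them higher. The smallest p was at Mir6342, without a host, where 5 libraries of smoked sires ran from 9.33% to 27% and 5 of control sires from 19.6% to 52.2%. Its difference was -16.6 points (SE 6.21, limma adjusted p 0.812), and the ranges overlapped. Mir10a had 63.8% in sons of smoked sires against 58.9%, and Mir3099 differed by +0.303 points, with limma adjusted p of 0.828 and 0.985. The Mir290a block had 3.35% ± 0.802 (n = 6) against 1.98% ± 1.07, a difference of +1.37 points with a limma adjusted p of 0.812.

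In F1 brain, sons of smoked WT sires were compared with sons of control WT sires. Of 338 neighbourhoods 8 (background 4.57%) had an unadjusted p under 0.05, 6 of them higher (2 of 7 after centring), and 0 were called (background 0.000869%). The size rule picked 27 (background 10.2%), 23 of them higher. The smallest p was at Mir5121, in a coding exon of the ribosomal protein gene Rpl13a, with 39.3% to 68.8% and a median of 49.8% in 6 libraries of smoked sires and 6.25% to 47.1% with a median of 19.8% in control sires. The difference over 4 positions was +28.8 points (SE 7.49, limma adjusted p 0.957), the ranges overlapped, and 15% of the 32-base words of this neighbourhood recur elsewhere in mm10.

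Sons of control Nrf2-/- sires differed little from sons of control WT sires at single neighbourhoods. Of 338 neighbourhoods 36 (background 7.52%) had an unadjusted p under 0.05 and 34 of them were higher (background in that direction 5.64%), a split that centring turned to 3 higher of 9. Of the 34, 29 lay below 5% in control WT sires, and the median size of the 34 differences was 0.851 points. Centring took about the group difference over all features, +0.518 points, from each of them. None was called (0, background 0.0148%), and the size rule picked 22 (background 9.72%), 16 higher. On the brain list 5 of 16 had an unadjusted p under 0.05, all higher, and 0 of 16 did with centred libraries. The 5 differed before centring as follows: Mir137 by 2.13 points, Mir9-2 by 1.03, Mir124a-1 by 0.925, Mir219a-1 by 0.747 and Mir124a-3 by 0.586, with 0.629 as the smallest limma adjusted p. The smallest p of all was at Mir196a-2, in an intron of Hoxc5, with 3.9% ± 1.38 against 2.39% ± 0.527 over 21 positions, limma adjusted p 0.617.

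Sons of smoked Nrf2-/- sires were compared with both control groups. Against control WT sires 36 neighbourhoods (background 9.77%) had an unadjusted p under 0.05, 18 of them higher, which became 31 of 47 after centring, and 0 were called (background 0.0156%). The 18 higher ones included 15 below 5% in control WT sires, and the 18 lower ones included 9 between 25% and 75% and 8 at 75% or above, with median sizes of 0.810 and 10 points. The size rule picked 51 (background 14.6%), 5 of them higher. The smallest p was at Mir7656, in an intron of Slc9a9, with 76.3% ± 10.2 (n = 7) against 87.5% ± 6.35, a difference of -11.3 points (SE 3.36, limma adjusted p 0.386).

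Against control Nrf2-/- sires the lower direction prevailed before centring. Of 338 neighbourhoods 30 (background 9.55%) had an unadjusted p under 0.05, all lower (background in that direction 8.27%), which turned to 50 higher of 72 with centred libraries as the median of all features moved from -0.585 to +0.574 points. None was called (0, background 0%), and the size rule picked 63 (background 17%), 1 of them higher. Of the 30, 18 lay between 25% and 75% in control Nrf2-/- sires, and the median size was 7.21 points. Mir7006, in an intron of Zfp512b, had 75.1% ± 11.6 (n = 6) against 87.4% ± 4.78, a difference of -12.3 points (SE 3.6, limma adjusted p 0.302). Mir219a-2 had a difference of -7.37 points and Mir142 of -6.52, with limma adjusted p of 0.396 and 0.471.

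The change with CS was also compared between sire genotypes in F1 brain. Of 338 neighbourhoods 28 (background 9.77%) had an unadjusted p under 0.05, all with a more negative change in sons of Nrf2-/- sires (background in that direction 8.83%). This became 58 of 82 with a more positive change after centring, and 0 were called (background 0%). Over all comparisons of smoke and genotype, the share with an unadjusted p under 0.05 ran from 1.13% to 11.7% of neighbourhoods and from 4.01% to 9.77% of all features.

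The mean over neighbourhoods was compared over libraries with 2-sided permutation tests, over the 110 neighbourhoods with a value in every F0 sperm library, 32 in F1 sperm and 233 in F1 brain. In F0 sperm it was 38.5% ± 0.559 in control WT and 38.2% ± 0.761 in smoked WT, permutation p 0.282, and the other 5 groups differed from control WT by -0.323 to +0.161 points. In F1 sperm it was 57.8% ± 1.87 (n = 7) against 55.6% ± 2.87 (n = 6), exact permutation p 0.127. In F1 brain it was 33.6% ± 0.470 for control WT sires, 34.2% ± 1.15 for smoked WT, 34.2% ± 0.397 for control Nrf2-/- and 33.2% ± 0.828 for smoked Nrf2-/- sires. The difference between control Nrf2-/- and control WT sires was +0.609 points (exact permutation p 0.0148) and that between smoked and control Nrf2-/- sires -0.999 points (exact permutation p 0.00777), and both had an adjusted p of 0.0886 over the 12 comparisons. The mean over all features moved by +0.518 and -1.17 points in these comparisons. With every neighbourhood that had a value in a library averaged, the last difference was -3.07 points with an adjusted p of 0.0429. That average turned the sign in F1 sperm (-1.50 points) and, against control WT F0 sperm, in smoked WT (+0.205), recovery 1 (+0.189), recovery 3 (-0.132) and control Nrf2-/- (-0.205).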

How the data were processed

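RRBS libraries (112, in 13 groups) were made with MspI and a second digest, and the authors aligned them to mm10 with Bismark (version not given in the sources used here). The 13 deposited tables hold 1 methylation percent per cytosine position and library, made by the authors without read counts, so depth is unknown, low-depth positions cannot be removed, and the number of libraries and positions sets the precision. Column names carry facility numbers that match no sample label, so columns were assigned to groups only (0 columns unused). Whether libraries of a group came from separate animals rests on the study's design, and p-values measure the spread between libraries.

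Neighbourhoods (gene ± 1000 bp) and all other 2000 bp autosomal windows were scored together. A position needed a value in 4 or more libraries per group, a feature needed 3 positions, and a library needed 50% of them. The library value is the library effect of an additive position and library fit plus the mean position level. Groups were compared with limma (3.58.1, R 4.3.3; 1 mean per group, variance trend), with Benjamini-Hochberg adjustment over all features of the tissue. Means over neighbourhoods were compared with permutation tests (scipy 1.17.1, exact or 100000 resamples). Python 3.11.15, numpy 2.4.6, pandas 2.3.3 and matplotlib 3.10.9 were used. The scripts were tested on simulated data.

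Neighbourhoods were named as those called within a tissue, or else the smallest p; the 8 highest and 8 lowest called differences of brain from sperm without overlap; the 6 intermediate ones with most positions; the 4 with the largest control SD; and up to 4 per list. The neighbourhoods and the 7 lists (brain, male germ line and early embryo, imprinted, Hox, oxidative stress, inflammation and smoke response, let-7) were chosen with earlier results of these data known. Alternatives covered the minimum of libraries, share of positions, distance, window, scale, centring, variance trend, array weights, 2 groups alone, the sperm group and leaving out each library.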

Additional observations from a re-analysis of the deposited data

Results flagged for a closer look

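Of 68 groups of 4 to 10 libraries behind the named values, 5 had 1 library far from the others, and chance alone would set 1 apart in about 1 in 20 groups. The mean over neighbourhoods in smoked WT F0 sperm was 36.3% in its lowest library, with the next at 37.9% (n = 9). That library was also the lowest of its group over all features, at 58.8% with the next at 62.3%. Mir218-1 had 79.3% in the highest smoked Nrf2-/- library, with the next at 69.6% (n = 9), and 44.8% in the lowest control WT library, with the next at 54.4% (n = 10). Mir6896 had 95.8% in 1 F1 sperm library of a control WT sire and 100% in the other 3. Mir6399 had 58.9% in the highest F1 brain library of control WT sires, with the next at 38.7% (n = 8). Both Mir6896 and Mir6399 remained called between brain and sperm under every alternative that gave them a value.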

How the results depend on the processing

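No paired analysis was possible because the columns carry no replicate number that matches a label. The 16 neighbourhoods named for brain against sperm kept their call and direction in 363 of 364 settings, the exception being Mirlet7a-2 with control WT F0 sperm in place of F1 sperm (+11.6 points, adjusted p 0.144). The count of called neighbourhoods in that comparison was 93, and it was 156 with centred libraries, 59 with 6 libraries per group (5 in F1 sperm), 51 within 500 bp, 185 with control WT F0 sperm, and 86 to 97 with 1 library left out; fewer neighbourhoods enter under the stricter rules. Mir3099 in control Nrf2-/- against control WT lost its call (count 0) on the logit scale, with centred libraries, with 2 groups alone and with 3 libraries per group (adjusted p 0.0971, 0.114, 0.271 and 0.0517), and the count was 0 to 1 with 1 library left out, kept only without control Nrf2-/- library 1, 7 or 10 or control WT library 7 or 10. In smoked Nrf2-/- against control WT the count rose from 0 to 1 with centred libraries or no variance trend (Mir218-1, adjusted p 0.0413 and 0.0443) and with array weights (Mir6244, +7.11 points, adjusted p 0.0206), and was 0 to 1 with 1 library left out (Mir6244 without smoked Nrf2-/- library 7, adjusted p 0.0086); Mir6244 was named after its values were seen and had +5.99 points, adjusted p 0.0861, as reported. In recovery 2 the count was 0 to 1 with 1 library left out. Averaging all neighbourhoods with a value turned the mean difference to +0.205 points in smoked WT, +0.189 in recovery 1, -0.132 in recovery 3, -0.205 in control Nrf2-/- and -1.50 in F1 sperm, and made it -3.07 (adjusted p 0.0429) between smoked and control Nrf2-/- sires in brain. A size rule of 10 points left 2 neighbourhoods in smoked WT, 0, 1 and 0 in recoveries 1 to 3, 0 in control Nrf2-/-, 1 in smoked Nrf2-/- against either control, 1 in F1 sperm, and in F1 brain 5 for smoked WT sires, 3 for control Nrf2-/- sires, and 16 and 13 for smoked Nrf2-/- sires against control WT and control Nrf2-/- sires. For these changes the cause was not tested. All other counts of calls within tissues stayed at 0 under every alternative. Without read counts, a level of 0% or 100% at few positions cannot be separated from low depth.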
